A study of Mus musculus with 7 samples.

Results

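Macrophages that had been kept with Pam3CSK4 were compared with macrophages that had met no ligand, over 18193 genes. The comparison takes 3 of the 7 arrays of the study: the unstimulated culture, the culture given Pam3CSK4 and then MDP, and the culture given Pam3CSK4 and then Pam3CSK4. For each gene, the mean of both pretreated arrays was set against the unstimulated array. The cells were mouse macrophages grown from bone marrow, held for 24 h in medium (naive), in MDP or in Pam3CSK4, and then given medium, MDP or Pam3CSK4 for a further 3 h. The labels give 10 mg/ml for MDP and 1 mg/ml for Pam3CSK4. No strain, sex or age is given here, and no allele or transgene is named. Each group had 1 array, so every difference below is between single cultures, has no replicate check and carries no p-value. Both pretreated cultures also received a second ligand in the last 3 h, so the pretreatment alone was not measured, and the pair are not replicates of each other.

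Pam3CSK4 is a synthetic lipopeptide that is bound at the cell surface by Toll-like receptor 2 together with Toll-like receptor 1. The receptors act through the adaptor protein MyD88 and activate NF-kB and MAP kinases, which switch on genes of cytokines and chemokines. MDP, muramyl dipeptide, is a fragment of the bacterial cell wall that is sensed inside the cell by Nod2. Macrophages that have been exposed to a Toll-like receptor ligand for a day are known to respond to a second exposure with less of some cytokines, a state called tolerance, while other genes stay on or can be induced again.

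Expression is given as the deposited log2 signal, so that a difference of 1 is 2-fold. Array medians over all probe sets lay between 5.48 and 5.55. Signals under the array median are treated as indistinguishable from background. Where 1 side of a comparison lay below it, the difference is counted from that median and is a bound, and where both sides did, no fold is given. The array number limits the precision. Of the 10 macrophage markers, 0 lay below the array medians in the compared cultures, and their summed linear signal was 117518 in the unstimulated culture, 131702 after Pam3CSK4 and MDP and 134314 after Pam3CSK4 both times. Of 42 markers of lymphocytes, dendritic, stromal, mast, megakaryocyte and erythroid cells, 25 lay below the median on all 3 arrays. The summed linear signal of 9 stromal and endothelial markers was 357, 625 and 564 on the arrays in the same order, of which 7 lay below the medians and Dcn, a matrix proteoglycan, stood 1.72 higher. The 3 control probe sets for 18S ribosomal RNA stood 1.70 above unstimulated in the culture given Pam3CSK4 both times and 0.28 to 0.48 above it on the other 5 arrays.

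After Pam3CSK4 pretreatment, 252 genes (1.39%) exceeded the unstimulated level by 3-fold or more and 130 genes (0.715%) lay below it by as much. The median difference over all genes was 0.02. The counts were 258 (1.42%) and 132 (0.726%) in the culture given MDP second alone, and 249 (1.37%) and 131 (0.72%) in the culture given Pam3CSK4 second alone. With low values counted from the array medians, 236 and 119 genes remained past 3-fold. Just inside the upper threshold was Samhd1 at 1.59, and just outside it were Plagl2 at 1.58 and Olr1 at 1.57. On the lower side Ccr2 at -1.59 and Dtx4 at -1.60 were inside, and Rab4a at -1.58 and L3mbtl3 at -1.57 were outside. Mir155hg was also counted as higher on its deposited values, but its unstimulated value lay below the array median, and counted from that median it was at least 0.083 higher.

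**Figure D1:**
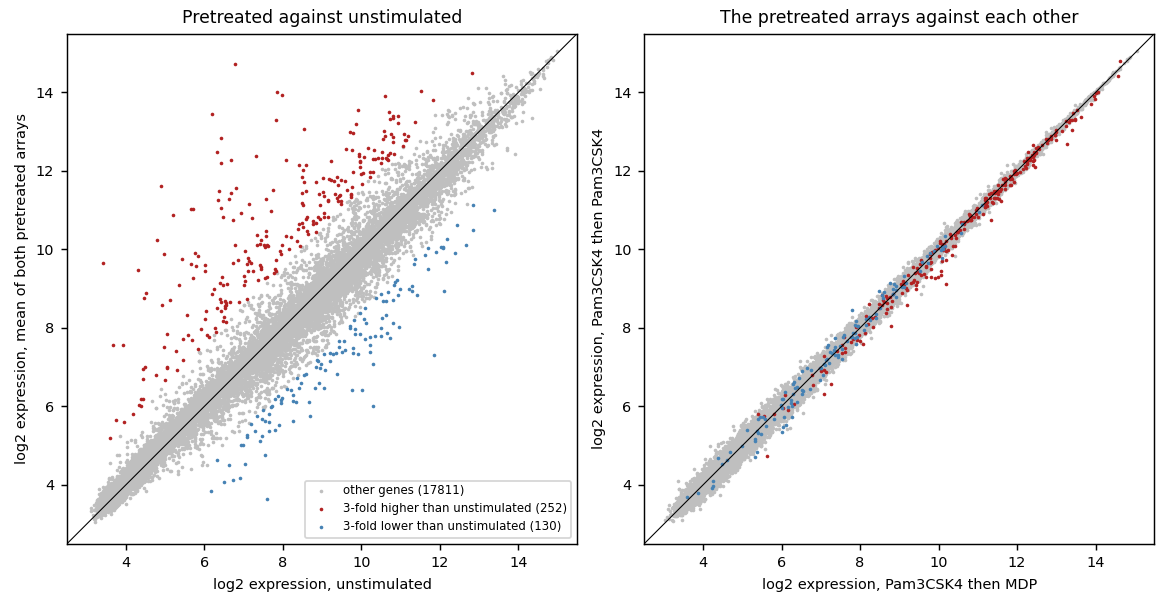
Log2 expression of all 18193 genes, with 1 point per gene and the line of equality. On the left the mean of both pretreated arrays is plotted against the unstimulated array, with the 252 higher genes in red and the 130 lower genes in blue. On the right the pretreated arrays are plotted against each other, and the same coloured genes lie close to the line.

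Saa3, an acute phase serum amyloid protein, measured 6.78 in unstimulated cells, 14.63 after Pam3CSK4 and MDP and 14.79 after Pam3CSK4 both times, a difference of 7.94 or 245-fold. Marco, a scavenger receptor that binds bacteria, measured 6.21, 13.43 and 13.46 on the same arrays, a difference of 7.24 or 151-fold. Fpr2, a receptor for formylated and amyloid peptides, measured 6.41, 12.86 and 12.81, a difference of 6.42. In each of these genes both pretreated cultures lay far above the unstimulated one, and they differed from each other by at most 0.16. Acod1, the enzyme that makes itaconate, stood 6.16 above unstimulated, Mmp14, a membrane-bound matrix protease, 6.15, and Ccl5, a T cell attracting chemokine, 5.95. Serpinb2, an inhibitor of plasminogen activators, was at least 6.12 higher, since its unstimulated value of 4.90 lay below the array median. Slfn1 stood 5.30 and Slfn4 5.07 higher, both members of the Schlafen family, with 2.68 for Slfn1 as the mean of its probe sets. Slc13a3, a carboxylate transporter, stood 4.92 higher, and Lox, which cross-links collagen, 5.10.

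Several of the highest genes were lower on the array of naive cells given Pam3CSK4 for 3 h than in the pretreated cultures. Arg1, which breaks down arginine, measured 5.67 in unstimulated cells, 5.82 in naive cells given Pam3CSK4, and 11.13 and 10.90 in the pretreated cultures. The acute phase genes Lcn2, a siderophore-binding lipocalin, and Hp, the haemoglobin-binding haptoglobin, stood 5.46 and 4.76 above unstimulated after pretreatment and 2.23 and 0.79 above it in naive cells given Pam3CSK4. Slpi, a protease inhibitor, stood 3.73 higher after pretreatment and 0.24 higher in naive cells, and Pla2g7, an enzyme that inactivates platelet activating factor, 2.94 higher and -0.29. The opposite order was seen in Il1b, which measured 6.67 in unstimulated cells, 14.17 in naive cells given Pam3CSK4, and 12.45 and 12.11 in the pretreated cultures. Socs3, an inhibitor of cytokine receptor signalling, measured 6.63, 13.43, 11.40 and 11.19 in that order. Of the 252 higher genes, 143 were at least 2-fold above the naive Pam3CSK4 array, 88 within 2-fold of it and 21 at least 2-fold below it. Of the 130 lower genes, 83 were at least 2-fold below that array, 45 within 2-fold of it and 2 at least 2-fold above it. The pretreated arrays both chose these genes and entered these counts, which are therefore a description.

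**Figure D2:**
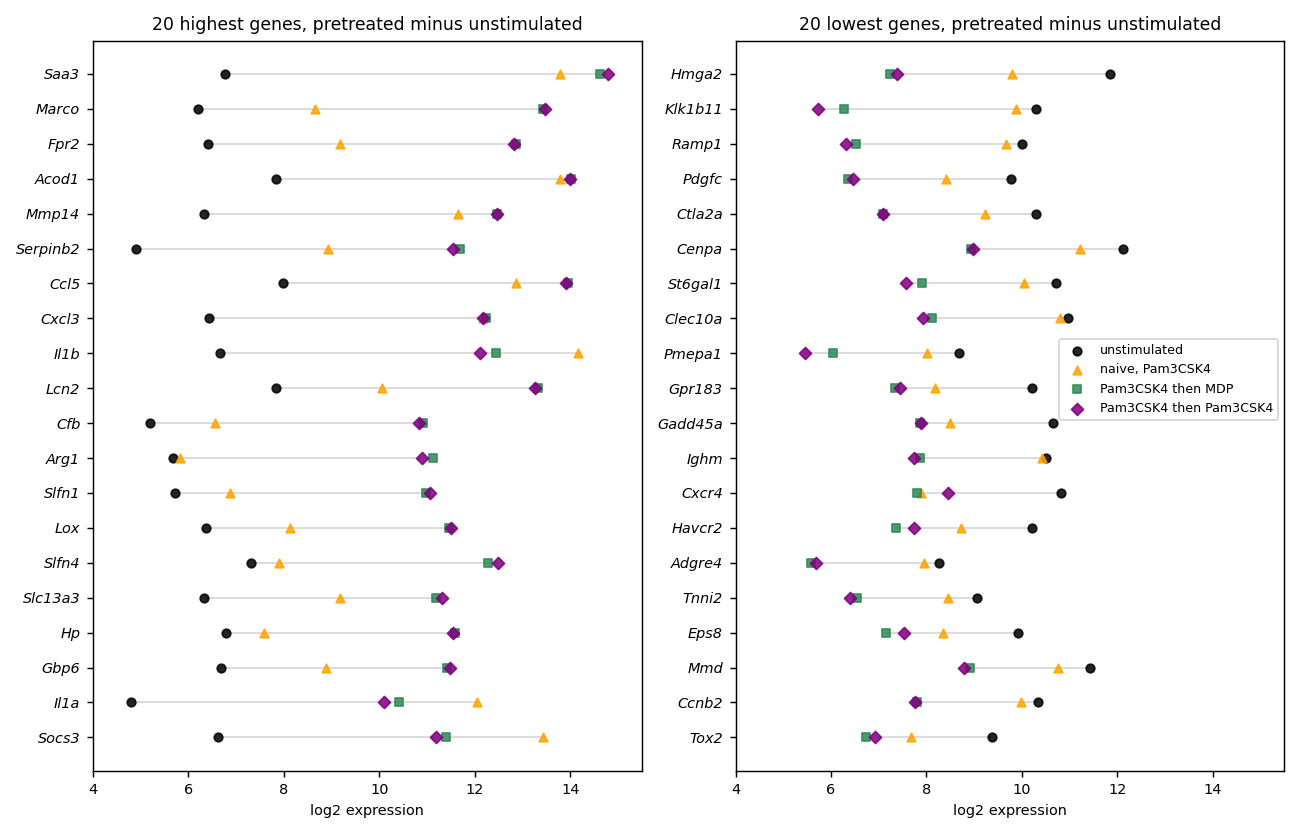
Log2 expression of the 20 highest genes (left) and 20 lowest genes (right) by the difference between the pretreated mean and the unstimulated array, with low values counted from the array medians. Each symbol is 1 array; Arg1, Hp and Slfn4 are close to unstimulated in naive cells given Pam3CSK4, and Il1b, Il1a and Socs3 are highest there.

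Of the 42 gene lists, that of antiviral interferon-stimulated genes had the most members past the threshold. For every list count at 3-fold after pretreatment, the share over all genes was 1.39% higher and 0.715% lower. These genes encode sensors, transcription factors and effectors of the antiviral state, and are switched on by transcription factors such as Irf9 and Irf7, which bind GAAA repeats in their promoters. All 33 measured members of the antiviral list were above unstimulated in the pretreated mean, 22 of them at least 3-fold, with a median of 2.05 against 0.02 over all genes. On the naive Pam3CSK4 array the median of the list was 0.65 and 1 member was past 3-fold, where 1.28% of all genes were. The median was 0.96 after MDP both times and 1.68 after MDP and then Pam3CSK4. Among the transcription factors, Irf7 measured 10.73 in unstimulated cells, 10.81 in naive cells given Pam3CSK4, and 13.35 and 13.30 in the pretreated cultures, a difference of 2.60. Stat2 measured 7.56, 8.39, 10.31 and 10.35 on these arrays, a difference of 2.77. Irf9 was below 3-fold at 0.78. For both Irf7 and Stat2 the naive Pam3CSK4 array lay nearer to the unstimulated array than to the pretreated ones.

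Effector genes ranged from 0.40 to 4.20 above unstimulated. Oasl1, of the oligoadenylate synthetase-like family, stood 4.20 higher, Isg20, an exonuclease, 3.78, and Mx1, an antiviral GTPase, 3.51. The Ifit genes, whose proteins bind viral RNA, stood 3.31 (Ifit2), 2.80 (Ifit1) and 2.59 (Ifit3) higher. The smallest difference was 0.40 in Ifitm3, a membrane protein that blocks virus entry, which was already at 13.77 in unstimulated cells. The sensor Ifih1 stood 2.31 higher and Tlr3, which detects double-stranded RNA, 1.92. Ifnb1, the gene of interferon beta itself, measured 5.31 in unstimulated cells, below the array median, 7.27 after Pam3CSK4 and MDP and 6.58 after Pam3CSK4 both times, at least 1.42 higher. Its value in naive cells given Pam3CSK4 was 5.70. Usp18 and Socs1, which dampen interferon receptor signalling, stood 2.53 and 2.92 higher.

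The guanylate binding proteins and immunity related GTPases attack compartments that hold intracellular microbes. Of 10 measured members 8 were at least 3-fold higher (background 1.39%), with a median of 2.17. On the naive Pam3CSK4 array their median was 1.12, with 3 members past 3-fold, and it was 1.03 after MDP both times and 1.93 after MDP and then Pam3CSK4. Gbp6 measured 6.68 in unstimulated cells, 8.87 in naive cells given Pam3CSK4, and 11.41 and 11.48 after pretreatment, a difference of 4.76. Iigp1 stood 3.99 higher, and the 2 members short of 3-fold were Gbp7 at 1.42 and Gbp8 at 0.11. Of genes of MHC class I presentation and the immunoproteasome, 2 of 16 were at least 3-fold higher (background 1.39%). They were Nlrc5, an activator of MHC class I genes, at 2.17, and the peptide transporter gene Tap1 at 2.07. The mean of the Tap1 probe sets was 0.92.

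Promoters of these genes are shown with the letters that interferon-regulated factors are known to bind. GAAA followed, after any 2 bases, by a second GAAA, the core of the interferon-stimulated response element, was searched on both strands from 250 bases before to 50 bases after the start of each gene in RefSeq (GRCm38.p6), which gave a promoter for 14368 of the 18193 genes. It was present in 3.03% of all these promoters, in 11 of 24 of the antiviral list (45.8%), in 6 of 7 of the guanylate binding and GTPase list (85.7%), in 33 of 198 of the higher genes (16.7%) and in 4 of 101 of the lower genes (3.96%). A match is a description of the letters and not a measured binding site. The 250 bases before the start are printed for Ifit1 (chr19:34640639-34640888, plus strand), Stat2 (chr10:128270248-128270497, plus strand) and Ifit3 (chr19:34583279-34583528, plus strand), with the matches in capitals. The printed promoters are among those with a match, which more than a few of the 24 antiviral promoters lacked. All the printed matches read on the other strand, so that they appear as TTTC repeats. They begin 104 and 85 bases before the start in Ifit1, 222 in Stat2, and 156 and 122 in Ifit3.
Ifit1: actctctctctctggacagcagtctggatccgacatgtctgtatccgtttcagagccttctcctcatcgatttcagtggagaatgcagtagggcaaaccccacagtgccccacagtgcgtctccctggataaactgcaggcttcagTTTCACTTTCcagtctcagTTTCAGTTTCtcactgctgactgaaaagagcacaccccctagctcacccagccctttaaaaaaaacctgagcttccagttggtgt
Stat2: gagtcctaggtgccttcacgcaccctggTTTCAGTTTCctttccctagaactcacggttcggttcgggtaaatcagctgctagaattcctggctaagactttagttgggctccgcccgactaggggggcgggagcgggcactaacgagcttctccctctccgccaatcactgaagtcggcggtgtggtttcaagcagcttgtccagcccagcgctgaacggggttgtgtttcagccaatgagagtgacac
Ifit3: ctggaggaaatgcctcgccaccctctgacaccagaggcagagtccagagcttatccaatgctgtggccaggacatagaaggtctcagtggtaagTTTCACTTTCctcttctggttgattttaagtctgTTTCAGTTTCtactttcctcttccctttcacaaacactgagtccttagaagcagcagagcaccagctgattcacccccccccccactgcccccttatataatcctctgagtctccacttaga

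The genes of the NF-kB system took another course. Of the 10 measured genes of NF-kB subunits and their inhibitor proteins, 1 was at least 3-fold higher after pretreatment (background 1.39%). The list median was 0.71. In naive cells given Pam3CSK4, 7 were past 3-fold, with a median of 2.33. The gene past 3-fold after pretreatment was Nfkbiz, an atypical nuclear member of the inhibitor family, which measured 8.42 in unstimulated cells, 12.57 in naive cells given Pam3CSK4, and 12.21 and 12.12 in the pretreated cultures. Nfkbie, a classical inhibitor, measured 9.02, 11.93, 9.88 and 9.68 in the same order, and the subunit gene Nfkb2 8.27, 11.02, 9.51 and 9.34. Nfkbiz thus lay near its naive induced level on both pretreated arrays, while Nfkbie and Nfkb2 lay nearer to the unstimulated value. Nfkbid, another nuclear inhibitor protein, measured -0.53 after pretreatment and 0.99 in naive cells, as differences from unstimulated.

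Among 25 measured cytokine genes 7 were at least 3-fold higher (background 1.39%), with a median of 0.69. Naive cells given Pam3CSK4 had 11 (background 1.28%) and a median of 1.40. The count was 7 with a median of 0.97 in the culture given MDP second and 4 with a median of 0.46 in the culture given Pam3CSK4 second. It was 6 with low values counted from the array medians, and 4 with 32 added to the linear values. Il6, which drives the acute phase response, measured 3.41 in unstimulated cells, 9.84 in naive cells given Pam3CSK4, 10.18 after Pam3CSK4 and MDP and 9.12 after Pam3CSK4 both times, at least 4.15 above unstimulated. Il1a, a cytokine of the interleukin-1 family, measured 4.79, 12.04, 10.41 and 10.09, at least 4.75 higher. Tnf, a central inflammatory cytokine, measured 9.32, 12.89, 11.54 and 11.28, a difference of 2.09. Il1a and Tnf lay between the unstimulated and the naive induced level. Il12b, a subunit of interleukin-12 and interleukin-23, was below the array median at 3.74 in unstimulated cells and at 4.02 and 4.06 after pretreatment, against 6.37 in naive cells given Pam3CSK4. Il10, an anti-inflammatory cytokine, stood 1.37 higher after pretreatment and 3.07 in naive cells. Tnfsf10, the gene of a death-inducing ligand, stood 1.77 higher, and Il1rn, the antagonist of the interleukin-1 receptor, 1.59. Ifnb1 was among the 7 on its deposited values, and counted from the array median it was at least 1.42 higher, short of 3-fold.

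Chemokines had 12 of 26 members at least 3-fold higher and 1 lower (background 1.39% and 0.715%), with a median of 1.00. Counts in naive cells given Pam3CSK4 were 10 and 1 (background 1.28% and 0.605%), with a median of 0.90. The neutrophil attractants split. Cxcl3 measured 6.43 in unstimulated cells, 12.16 in naive cells given Pam3CSK4, and 12.24 and 12.16 in the pretreated cultures. Cxcl1 measured 7.20, 11.50, 9.81 and 9.49. Cxcl2 stood 4.55 above unstimulated after pretreatment, and Cxcl5 at least 2.05. Ccl3 and Ccl4, which attract monocytes, stood 2.45 and 2.28 higher, and Ccl8 3.02. Cxcl10, a chemokine that interferons induce, stood 3.20 higher. Cxcl14 was the lower member at -1.96, and stood at -2.29 in naive cells given Pam3CSK4.

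GGG followed, after any 2 bases, by TTTCC, a simplified form of the NF-kB recognition sequence, was found by the same search in 1.56% of all promoters, 12 of 198 of the higher genes (6.06%), 0 of 101 of the lower genes, 5 of 17 of the chemokines (29.4%) and 2 of 18 of the cytokines (11.1%). Il6 (chr5:30012864-30013113, plus strand) and Cxcl3 (chr5:90785851-90786100, plus strand), a cytokine and a chemokine that were high in pretreated cells, are printed. Both are among the promoters with a match, while most promoters of their lists had none. The capitals mark the match, which begins 44 bases before the start in Il6 and 73 in Cxcl3.
Il6: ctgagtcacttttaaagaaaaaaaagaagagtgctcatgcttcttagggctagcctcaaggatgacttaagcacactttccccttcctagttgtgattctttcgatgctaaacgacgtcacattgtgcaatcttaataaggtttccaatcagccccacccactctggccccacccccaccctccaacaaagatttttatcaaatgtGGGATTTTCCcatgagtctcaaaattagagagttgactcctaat
Cxcl3: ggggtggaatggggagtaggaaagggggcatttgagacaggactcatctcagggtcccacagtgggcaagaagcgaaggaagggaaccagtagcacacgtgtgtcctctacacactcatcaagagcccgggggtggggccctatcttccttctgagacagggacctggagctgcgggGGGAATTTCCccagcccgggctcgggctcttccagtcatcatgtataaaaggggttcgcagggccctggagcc

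Of the receptor genes Tlr2 and Tlr1 and the adaptor gene Myd88, Tlr2 was past 3-fold and Tlr1 and Myd88 were not. Among 24 measured genes of Toll-like receptor and NOD signalling components, 2 were at least 3-fold higher and 0 lower (background 1.39% and 0.715%). The median of that list was 0.27 and its largest difference 4.335. Tlr2, the receptor for Pam3CSK4, measured 11.20 in unstimulated cells, 13.78 in naive cells given Pam3CSK4, and 12.88 on both pretreated arrays, a difference of 1.68. Its partner Tlr1 stood 1.10 higher and the adaptor gene Myd88 0.90. Cd14, a lipid-binding co-receptor, stood 0.29 higher, and Tlr4, the receptor for lipopolysaccharide, at -0.97. Nod2, Ripk2 and Nfkb1 are not analysed here. Of 23 microbial pattern receptors, 6 were at least 3-fold higher (background 1.39%), led by Clec4e, a receptor for mycobacterial glycolipid, at 3.61. Clec7a, the receptor for fungal beta-glucan, was lower, with 12.09 in unstimulated cells, 12.07 in naive cells given Pam3CSK4, and 10.11 and 10.01 after pretreatment.

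Of 31 measured feedback inhibitors of Toll-like receptor and cytokine signalling, 7 were at least 3-fold higher and 0 lower (background 1.39% and 0.715%). The list median was 0.75, and a count of 0 lower in a list of 31 is near the background. Irak3, a kinase homologue that blocks signalling from MyD88, measured 8.50 in unstimulated cells, 10.08 in naive cells given Pam3CSK4, and 11.83 and 11.86 in the pretreated cultures. Siglece, an inhibitory receptor for sialic acid, measured 5.67, 6.90, 9.55 and 9.73. Both genes were higher in either pretreated culture than in naive cells given Pam3CSK4. Zc3h12a, a nuclease that degrades cytokine transcripts, showed the other order with 7.92, 10.88, 9.91 and 10.00. Of 17 genes of MAP kinase phosphatases and ERK pathway inhibitors, 0 were past 3-fold in either direction (background 1.39% higher and 0.715% lower). At 2-fold, 0 were higher and 2 lower (background 2.65% and 2.43%). Dusp6, a phosphatase for ERK, stood at -1.33 after pretreatment and -3.28 in naive cells given Pam3CSK4.

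Acute phase and antimicrobial genes had 8 of 25 members at least 3-fold higher and 2 lower (background 1.39% and 0.715%). The list median was 0.76, against 0.19 in naive cells given Pam3CSK4. With low values counted from the array medians the median after pretreatment was 0.44, and with 32 added to the linear values 0.39. The lower members were Serpinb1a, a protease inhibitor, at -2.36, where the mean of its probe sets was -1.34, and Ang, a ribonuclease, at -1.68. Cp, the copper-carrying ceruloplasmin, stood 4.03 higher. The neutrophil markers S100a8 and S100a9, which macrophages can also express, stood 1.11 and 0.87 higher. Other neutrophil markers did not all follow: 7 of 10 were above unstimulated and the lowest stood at -0.93. The median of the 10 was 0.20, or 0.035 with low values counted from the array medians. The summed linear signal of 10 neutrophil markers was 5553 in unstimulated cells, 9335 after Pam3CSK4 and MDP and 8891 after Pam3CSK4 both times. Of these 10 markers only 2, Mpo and Cxcr2, lay below the median in the unstimulated and both pretreated cultures. The part of neutrophils in the acute phase difference was not tested. In bulk cultures a change in the number of cells of a type and a change in RNA per cell cannot be told apart.

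Complement, coagulation and lipid mediator genes each gave a few large differences. Cfb, a protease of the alternative complement pathway, measured 5.20 in unstimulated cells, 6.56 in naive cells given Pam3CSK4, and 10.91 and 10.83 after pretreatment, at least 5.37 higher. Cd55, a complement inhibitor, measured 4.50 in unstimulated cells, below the array median, and 7.07 and 6.92 after pretreatment. Counted from that median, Cd55 was higher by less than 3-fold. Procr, the protein C receptor, stood 4.04 higher, and the clotting factor genes F10 and F7 3.28 and 1.87, while Plau, the gene of urokinase, stood at -2.05. Ptgs2 and Ptges, which make prostaglandin E2, were at least 3.39 and 4.39 higher. Hpgd, which degrades prostaglandins, was at least 1.51 lower, and Ltc4s, of leukotriene synthesis, stood at -2.12.

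Costimulatory and coinhibitory genes had 7 of 26 members at least 3-fold higher and 1 lower (background 1.39% and 0.715%). Counts in naive cells given Pam3CSK4 were 10 and 0 (background 1.28% and 0.605%). Cd274, which encodes the inhibitory ligand PD-L1, measured 8.59 in unstimulated cells, 10.68 in naive cells given Pam3CSK4, and 12.23 and 12.08 after pretreatment. Cd40, a receptor for T cell help, measured 7.45, 12.71, 10.38 and 10.08. Havcr2, the inhibitory receptor Tim-3, measured 10.22, 8.73, 7.37 and 7.75. Of these, Cd274 was higher and Cd40 lower after pretreatment than in naive cells given Pam3CSK4.

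**Figure D3:**
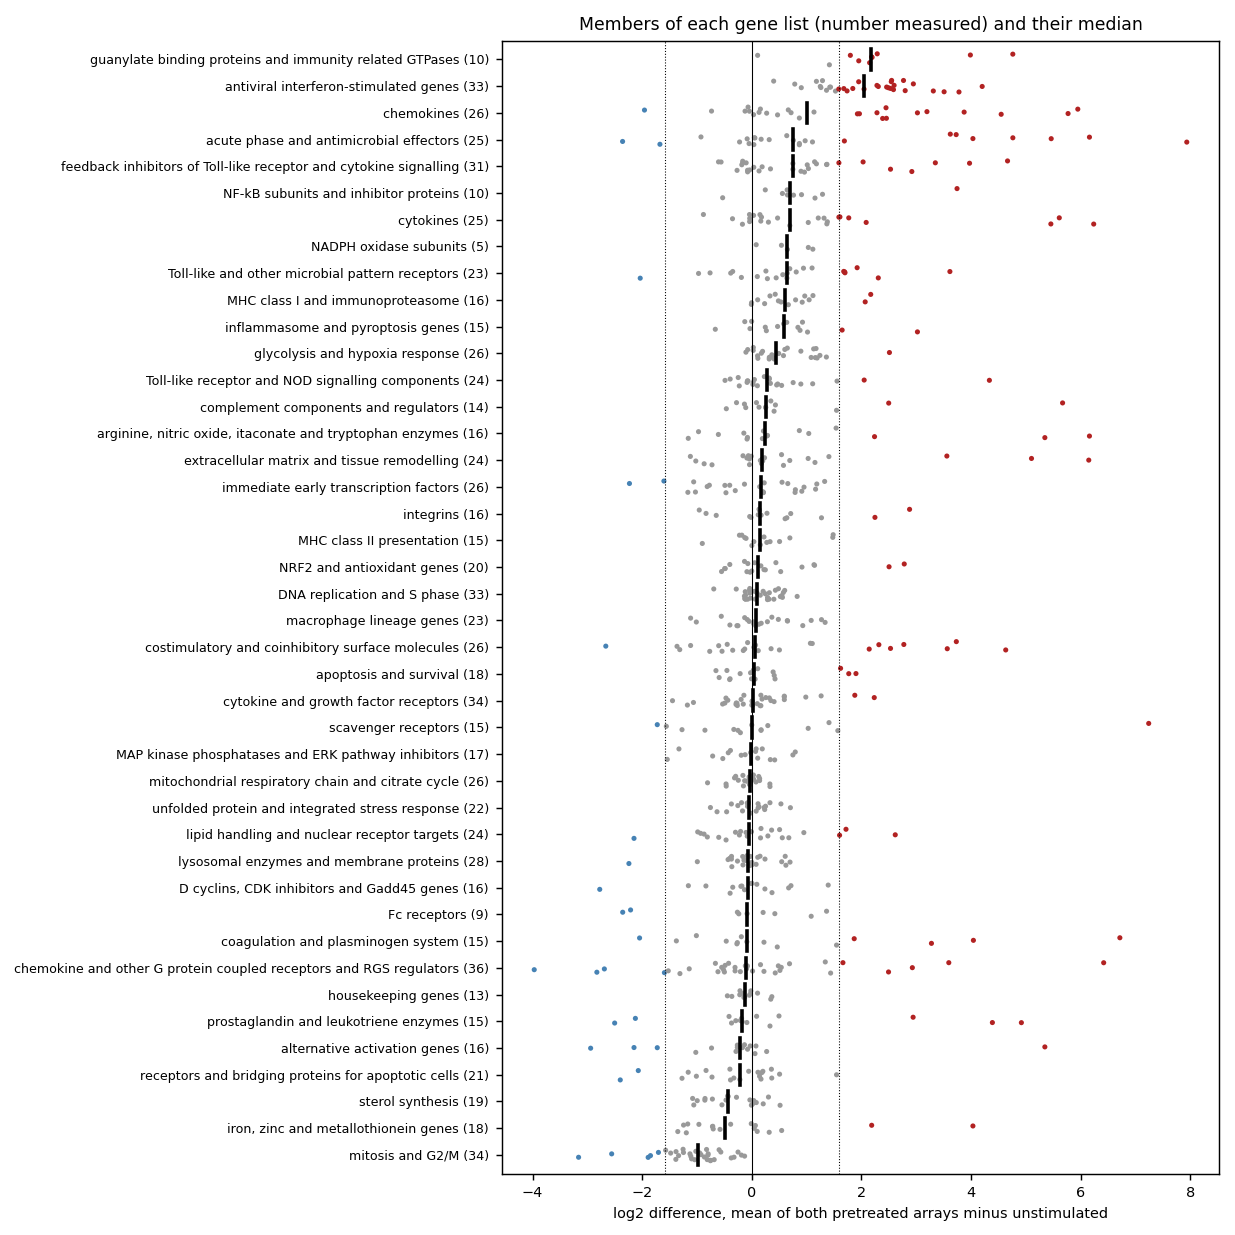
Log2 difference of every measured member of 42 gene lists between the pretreated mean and the unstimulated array. Points are genes, red past 3-fold higher and blue past 3-fold lower, dotted lines mark the threshold, and black bars are list medians, which run from -0.99 (mitosis and G2/M) to 2.17 (guanylate binding proteins and immunity related GTPases).

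The lowest genes were of mixed function. Hmga2, a chromatin protein of growing cells, measured 11.85 in unstimulated cells, 9.78 in naive cells given Pam3CSK4, and 7.24 and 7.39 in the pretreated cultures, a difference of -4.54 or 23.2-fold lower. Klk1b11, a kallikrein, measured 10.30, 9.88, 6.27 and 5.74, a difference of -4.30. Clec10a, a lectin used as a marker of alternative activation, measured 10.96, 10.80, 8.11 and 7.94, a difference of -2.94. Clec10a and Klk1b11 were near the unstimulated level in naive cells given Pam3CSK4 and low on both pretreated arrays. Pdgfc, a growth factor, stood at -3.36, Gpr183, a receptor for oxysterols, at -2.83, Gadd45a, a stress-response gene, at -2.77, and Cxcr4, a chemokine receptor, at -2.69. Gpr34 was at least 2.07 lower.

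Some of the lowest genes depended on the probe set. Ramp1, an accessory protein of receptors, stood at -3.60 on its brightest probe set and -1.26 as the mean of its probe sets, and Tnni2, a troponin, at -2.59 and -1.15. Ighm, an immunoglobulin gene, stood at -2.70 and, without less specific probe sets, at 0.15, and Tox2 at -2.55 and 0.10, so neither has a settled direction. The summed linear signal of 7 B cell markers, Ighm included, was 2108 in unstimulated cells and 1221 and 1193 after pretreatment, with 3 of them below the median on all 3 arrays. In the pretreated mean, however, 5 of the 7 were above unstimulated, with a median of 0.03, and Ighm alone was past 2-fold lower. Probe sets were also compared within genes past 3-fold, using only those above the array median on at least 1 of the 3 arrays. Where a gene had several of these, all of them were past 3-fold for 64 of 104 higher genes and 27 of 60 lower genes.

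Genes of alternative activation split, with Arg1 higher and 3 of 16 at least 3-fold lower (background 0.715%). The list median was -0.22, or -0.12 with cyclic loess. The lower members were Clec10a, Pparg, a lipid-sensing nuclear receptor, at -2.15, and Mrc1, the mannose receptor, at -1.72. Fcrls and Fcgrt, the latter the recycling receptor for immunoglobulin G, stood at -2.35 and -2.21. They were the Fc receptor genes past 3-fold among 9 (background 0.715% lower). Of 21 genes for uptake of apoptotic cells, Gas6, a ligand of the Mertk receptor, stood at -2.40 and Cd300a at -2.07. Mertk itself stood at -0.40 after pretreatment and -2.29 in naive cells given Pam3CSK4. None of the 23 macrophage lineage genes measured was past 3-fold (background 1.39% higher and 0.715% lower). At 2-fold, 3 of them were higher and 2 lower (background 2.65% and 2.43%). Csf1r, the receptor for the growth factor of the lineage, stood at -0.27. Among genes of metabolism, 8 of 26 for glycolysis and the hypoxia response were at least 2-fold higher (background 2.65%), led by the sugar transporter Slc2a6 at 2.51. No gene of 19 for sterol synthesis was past 3-fold (background 1.39% higher and 0.715% lower). The list median was -0.43 on the brightest probe sets, -0.24 as the mean of probe sets and -0.087 without less specific probe sets.

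Genes of cell division separated by phase. DNA is copied in S phase, with the MCM helicase and its partners, and chromosomes are parted in mitosis, with cyclin B, the Aurora and Polo kinases and the kinesins. All 34 measured genes of mitosis and G2/M were below unstimulated in the pretreated mean, with a median of -0.99. At least 3-fold lower were 5 (background 0.715%), and at least 2-fold lower were 17 (background 2.43%). As the mean of their probe sets, 3 were past 3-fold and 11 past 2-fold, with a median of -0.73. Ccnb2, a cyclin of mitosis, measured 10.34 in unstimulated cells, 9.99 in naive cells given Pam3CSK4, and 7.80 and 7.77 after pretreatment, a difference of -2.56. Cdc20, an activator of the complex that ends mitosis, measured 10.07, 9.86, 8.26 and 8.19, a difference of -1.85. Ube2c, the ubiquitin-conjugating enzyme of that complex, measured 10.86, 10.75, 9.17 and 9.15, a difference of -1.70. In all of them the naive Pam3CSK4 array lay within 0.35 of unstimulated. Cenpa, the centromere histone, stood at -3.16 on its brightest probe set and -0.58 without less specific probe sets, and Kif20a, a kinesin, at -1.89. The smallest differences were -0.13 in Bub1 and -0.19 in Cdc25c.

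Of the 33 measured genes of DNA replication and S phase, 0 were past 2-fold in either direction after pretreatment. Over all genes 2.65% were higher and 2.43% lower, so a count of 0 in a list of 33 is near the background. The list median was 0.10, and ran from 0.060 to 0.17 under the alternatives. In naive cells given Pam3CSK4 the medians were the other way round, -0.61 for the S phase list and -0.28 for the mitosis list. After MDP pretreatment the mitosis median was 0.61 with MDP second and 0.24 with Pam3CSK4 second, as differences from unstimulated. Set directly against the MDP-pretreated cultures, which does not use the unstimulated array, 29 of the 34 mitosis genes were at least 2-fold lower after Pam3CSK4 pretreatment (background 1.5%), with a median of -1.38, and the S phase list had a median of 0.02. Among regulators, Ccnd1, a cyclin of G1 phase, stood at -1.16 after pretreatment and -1.94 in naive cells given Pam3CSK4, and Cdkn1a, the inhibitor p21, at 0.67 and 1.27.

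**Figure D4:**
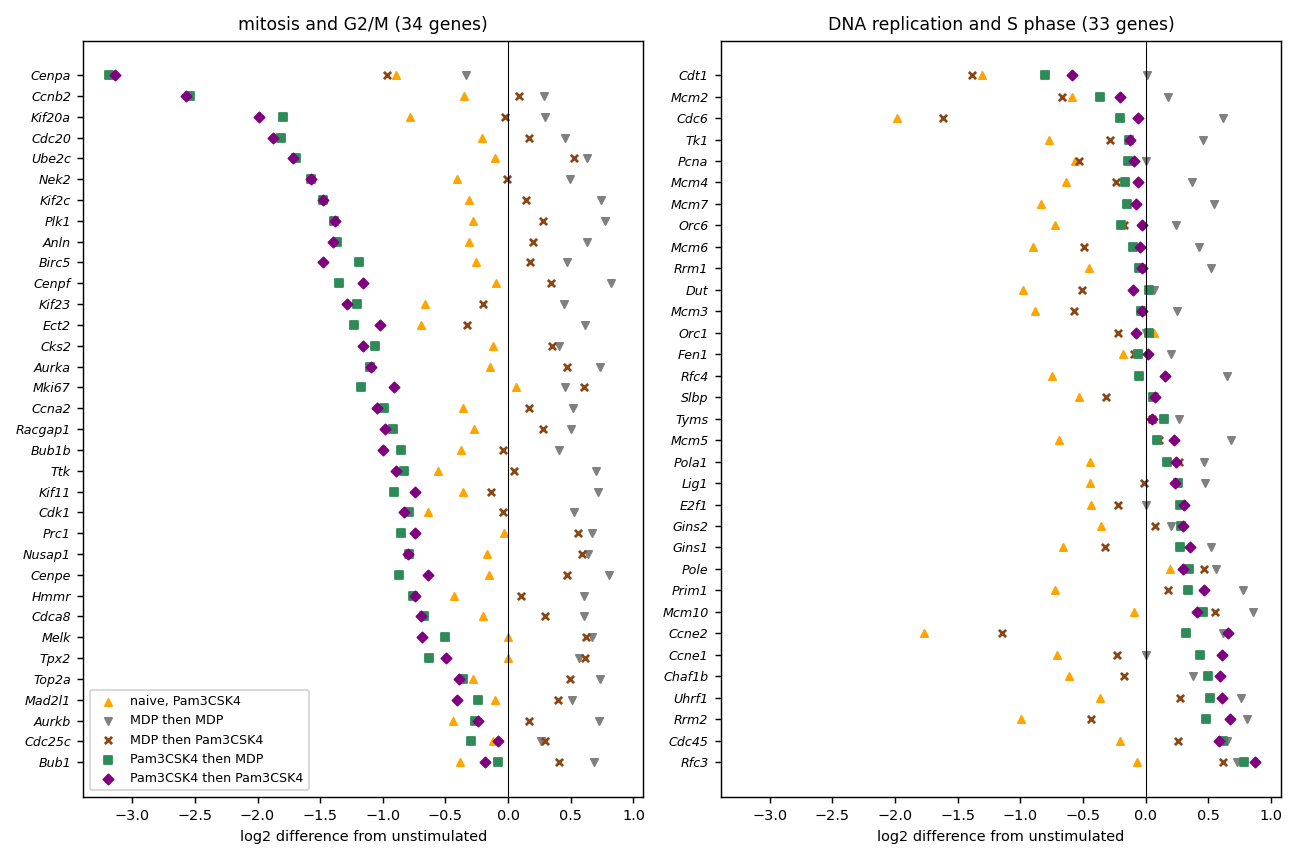
Log2 difference from the unstimulated array for each measured gene of mitosis and G2/M (left, 34 genes) and of DNA replication and S phase (right, 33 genes), with 1 symbol per array. The pretreated arrays lie left of 0 for every mitosis gene and on both sides of 0 for S phase genes, and for most mitosis genes the naive and MDP-pretreated arrays lie to their right.

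TTTGAA, the core of the CHR element of cell cycle genes, was present in 21 of 29 mitosis promoters (72.4%) and 3 of 28 S phase promoters (10.7%), against 13.3% of all promoters and 16 of 101 of the lower genes (15.8%). It was also in 4 of 7 promoters of the guanylate binding and GTPase list (57.1%). CCAAT was present in 23 of 29 mitosis promoters (79.3%), 17 of 28 S phase promoters (60.7%) and 38.2% of all promoters. Both were searched on both strands, and CCAAT can overlap itself across strands. TGANTCA, where N is any base, was searched in the same way and was in 6.29% of all promoters. Its share was 13.1% in the higher genes, 5.94% in the lower genes and 0% in the mitosis list. The antiviral list had it in 29.2% and the cytokines in 27.8%. Of the 5 mitosis genes past 3-fold lower, Ccnb2 (chr9:70421555-70421804, minus strand), Cdc20 (chr4:118437344-118437593, minus strand) and Ube2c (chr2:164769679-164769928, plus strand) are printed. Each of these printed promoters holds both TTTGAA and CCAAT. The capitals mark TTTGAA and CCAAT, which read as TTCAAA and ATTGG on the other strand, and TTTGAA begins 167, 18 and 29 bases before the start in these genes.
Ccnb2: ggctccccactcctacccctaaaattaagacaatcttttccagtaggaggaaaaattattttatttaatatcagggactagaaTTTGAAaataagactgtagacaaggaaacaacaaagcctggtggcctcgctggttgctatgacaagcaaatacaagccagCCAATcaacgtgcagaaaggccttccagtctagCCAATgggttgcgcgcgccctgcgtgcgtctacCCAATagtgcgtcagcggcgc
Cdc20: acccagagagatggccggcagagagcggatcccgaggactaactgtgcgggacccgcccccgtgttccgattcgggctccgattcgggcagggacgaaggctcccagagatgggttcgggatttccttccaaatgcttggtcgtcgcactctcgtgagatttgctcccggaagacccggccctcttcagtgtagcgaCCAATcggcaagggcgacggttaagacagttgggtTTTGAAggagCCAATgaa
Ube2c: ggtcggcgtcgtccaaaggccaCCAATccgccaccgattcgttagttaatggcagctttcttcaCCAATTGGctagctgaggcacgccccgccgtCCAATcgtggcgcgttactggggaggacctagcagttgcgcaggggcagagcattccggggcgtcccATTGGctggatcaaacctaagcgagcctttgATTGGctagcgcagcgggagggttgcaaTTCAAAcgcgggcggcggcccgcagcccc

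After Pam3CSK4 pretreatment, the culture given MDP second and the culture given Pam3CSK4 second differed little from each other. No pretreated culture was given medium second, so the effect of a second ligand as such was not measured. No gene (0%) was at least 2-fold higher with Pam3CSK4 second than with MDP second, and 1 gene (0.0055%), Il6, was at least 2-fold higher with MDP second, by 1.06. In naive cells 255 genes were 2-fold higher with Pam3CSK4 than with MDP and 129 with MDP than with Pam3CSK4, and after MDP pretreatment 439 and 259 were. A robust SD of the differences over all genes was 0.11 between the Pam3CSK4-pretreated arrays, the smallest of the 21 pairs of arrays, and 0.14 to 0.26 in the other pairs. With low values counted from the array medians, the genes next furthest from equality on the side of MDP were Itgb8, an integrin, by 0.76, Cxcl11, an interferon-induced chemokine, by 0.73, and Mx2 by 0.71, and on the side of Pam3CSK4 Dnase2a, a lysosomal nuclease, by 0.68 and Cxcr4 by 0.65. With 1 culture each, these differences cannot be told apart from variation between cultures.

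Pam3CSK4 pretreatment was also set against MDP pretreatment as the mean over both second ligands, on 4 arrays that do not include the unstimulated one. By this measure 192 genes (1.06%) were past 2-fold in favour of Pam3CSK4 and 273 (1.5%) past it the other way, and 146 and 397 when arrays were centred on housekeeping genes. With MDP second alone the counts were 348 and 374, and with Pam3CSK4 second alone 244 and 438. Marco measured 7.40 after MDP both times and 9.21 after MDP and Pam3CSK4, against 13.43 and 13.46 after Pam3CSK4, a difference of 5.14. Arg1 measured 7.06 and 5.83 against 11.13 and 10.90, a difference of 4.57. Lcn2, Cfb and Hp were 3.97, 3.87 and 3.75 higher, with 5.31, 5.10 and 4.25 for MDP second and 2.63, 2.64 and 3.25 for Pam3CSK4 second. The lowest were Klk1b11 at -4.16, Hmga2 at -3.22 and Adgre4, an adhesion receptor, at -3.09, and Hmga2 stood at -4.23 with MDP second and -2.21 with Pam3CSK4 second. Cd83, a marker of activated antigen-presenting cells, measured 10.32 after MDP both times and 13.04 after MDP and Pam3CSK4, against 8.80 and 8.94 after Pam3CSK4, a difference of -1.52 with MDP second and -4.10 with Pam3CSK4 second. The antiviral list had 11 of 33 members at least 2-fold higher than after MDP, with a median of 0.81.

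**Figure D5:**
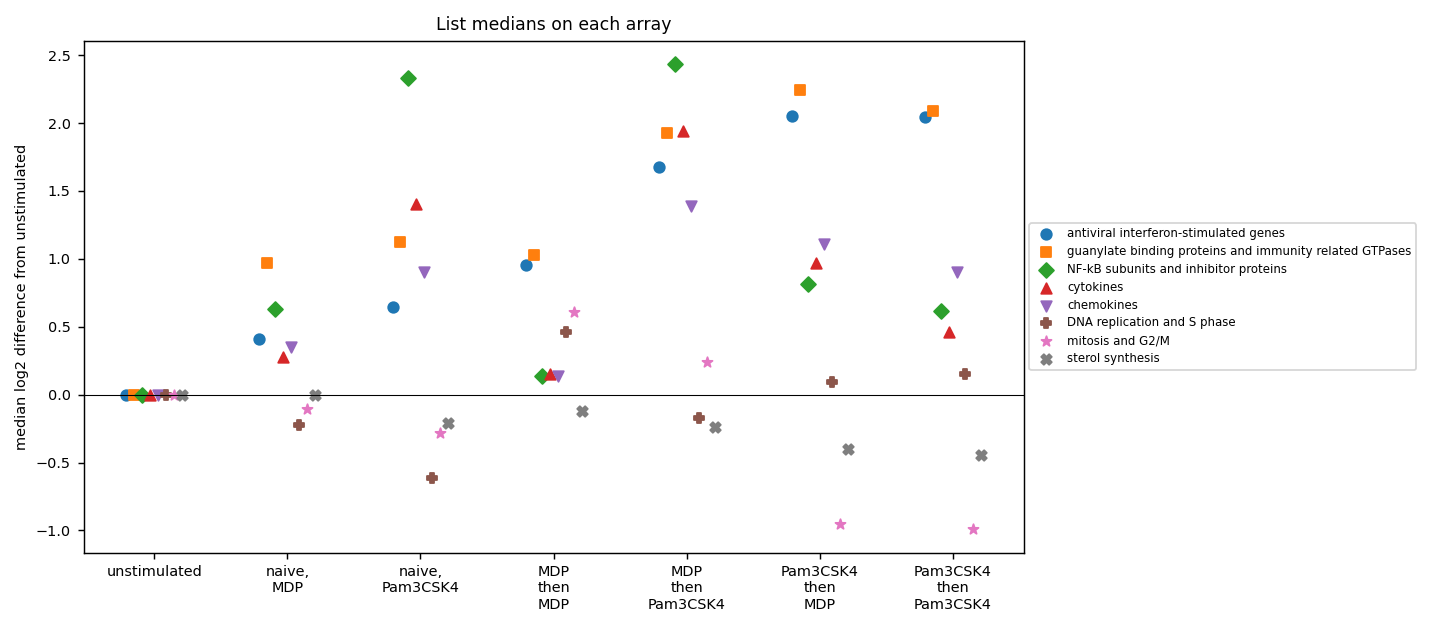
Median log2 difference from the unstimulated array for 8 gene lists on each of the 7 arrays, with 1 symbol per list. On the Pam3CSK4-pretreated arrays the interferon-stimulated lists lie at 2.05 to 2.24 and the mitosis list at -0.95 and -0.99, and the NF-kB list is highest, at 2.33 and 2.43, on the arrays of naive and MDP-pretreated cells given Pam3CSK4.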

How the data were processed

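The 7 samples were mouse bone marrow derived macrophage cultures with 1 Affymetrix array each, all labelled replicate 2. The deposited log2 values were made by RMA with affy according to the authors, per the submitters' processing notes; versions and the arrays normalized together are not given in the sources used here. RMA makes array distributions alike, so a shift of most genes would be reduced. Of 45101 probe sets, 64 were controls, 34945 had 1 gene symbol, 932 several and 9160 none in the platform table; 34741 matched a RefSeq gene identifier, with 0 symbols updated. Each of 18193 genes took its brightest probe set (mean over 7 arrays), and 9010 genes had several. Differences were taken on the deposited values and no test was run. The members and the 42 pathway and 7 marker lists (879 of 974 entries measured) were chosen with earlier results of these data known. Named genes are the 20 highest and lowest, up to 6 per list, the furthest between arrays and a set of macrophage genes; genes named as the smallest in a list, beside the thresholds, or as further list examples were chosen after their values were seen. Simulated data with known changes were used to test the arithmetic. Alternatives were cyclic loess (span 0.7, 3 iterations), centring on medians or housekeeping genes, the mean of probe sets, less specific probe sets left out, 32 added to linear values, values floored at or filtered on the array median, other thresholds, and single arrays. Python 3.11.15, numpy 2.4.6 and pandas 2.3.3 were used, with limma for the loess.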

Additional observations from a re-analysis of the deposited data

Results flagged for a closer look

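A total of 9 genes lay past 2-fold from unstimulated in opposite directions in the Pam3CSK4-pretreated mean and in naive cells given Pam3CSK4. The difference was not tested, and both comparisons share the unstimulated array. Cd83 stood at -1.31 after pretreatment and 2.97 in naive cells. Egr2, a zinc finger transcription factor, stood at -1.94 at most, counted from the array median, and 1.73. Slc30a4, a zinc transporter, stood at -1.19 and 1.49, and Noct, a circadian deadenylase-like protein, at -1.42 and 1.04. The other five were higher after pretreatment. Ppbp, a platelet chemokine, stood at 1.93 and -1.17, Ahrr, a repressor of the aryl hydrocarbon receptor, at 1.57 and -1.11, and Thbs1, the matrix protein thrombospondin, at 1.55 and -1.29. Spsb4 stood at 1.36 and -1.52 and Lratd2 at 1.02 and -2.08.

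Probe sets that the gene comparison left out because they have no symbol or several also held differences, with 37 past 3-fold upwards and 17 past it downwards in the pretreated mean.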

How the results depend on the processing

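Under scaling, probe set and low-value alternatives and on single pretreated arrays, the 3-fold counts ran from 212 to 272 higher and 89 to 139 lower. Other thresholds gave 483 and 442 at 2-fold and 167 and 65 at 4-fold. Between pretreatments, 74 genes were higher and 80 lower at 3-fold, 348 were higher and 374 lower at 2-fold on the arrays with MDP second alone, and 244 higher and 438 lower on those with Pam3CSK4 second alone. Centring on housekeeping genes changed that split from 192 and 273 to 146 and 397. At 3-fold, 0 genes differed between the Pam3CSK4-pretreated arrays. Lists with a median past 1 in size numbered 3, and 2 to 4 under the alternatives. Without less specific probe sets, Ighm reversed to 0.15 and Tox2 to 0.10; the cause was not tested. Of 136 named genes past 3-fold, 30 fell short under at least 1 alternative, 20 of them with the mean of probe sets and 14 with 32 added to linear values. The median of all genes lay between -0.02 and 0.03 under the alternatives. No paired analysis was possible because each group has 1 array and all labels carry the same replicate number. Signals near or below the array median limit the folds of low genes, and the depth of an array has no read count.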
